A study of Rattus norvegicus with 90 samples.

Results

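The transcripts described here were those whose level in rat liver was raised by the high dose of thioacetamide at both sampling times, 8 h and 24 h, without a like rise in kidney at 8 h. They numbered 180 of the 40071 transcripts in the tables. Each was chosen by its measured values in these samples. The level was the CPM (counts scaled to a common library total) of a transcript among all transcript counts of a library, and L was the log2 ratio of mean CPM + 1 at the high dose to mean CPM + 1 with vehicle, less the median of that ratio over transcripts with a vehicle level of at least 1 CPM. A member had L of at least 1.5 in liver at 8 h and at 24 h, a liver vehicle level of at least 0.5 CPM at 24 h and L below 1 in kidney at 8 h. Values of the high dose in liver are therefore given as a description, with no test.

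RNA was measured in liver, kidney and heart of male Sprague-Dawley rats, bought at 10 weeks of age and later fitted with a jugular catheter before dosing. Each rat received 1 intraperitoneal injection of saline vehicle, of thioacetamide at 25 mg/kg (low dose) or of thioacetamide at 100 mg/kg (high dose). Organs were collected 8 or 24 h later, with 5 samples in each of the 18 groups of organ, dose and time, 90 samples in all. By the study's methods, rats sampled at 8 h were injected in the morning and had no food after it. Those sampled at 24 h were injected in the late afternoon, had food at first and had none for the last 8 h. Both were sampled at the same time of day after 8 h without food. The time after injection, the clock time of injection and the access to food after it therefore changed together. Liver, kidney and heart were taken from the same rats, and the labels do not state which organs belong to 1 rat. Library numbers differed by 30 between liver and kidney of the same dose and time for 22 of 30 liver libraries, and by 60 between liver and heart for 27 of 30, but nothing in the labels says that this step marks a rat, and it was not used.

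Thioacetamide is a hepatotoxicant that acts after it is oxidised. Cytochrome P450 and flavin-containing monooxygenase enzymes, which are most abundant in hepatocytes around the central vein, convert it to a reactive S-oxide and S-dioxide that bind lipids and proteins, and the tissue there becomes necrotic. A transcript that is raised early and is still raised a day later belongs to a sustained response, as opposed to the early transient and the late parts of the response to injury. In bulk tissue, fewer cells of a type and less RNA per cell cannot be told apart, and the same holds for more of either.

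The tables named each transcript by an Ensembl rat identifier, and no table used here paired these identifiers with genes. Members are therefore described by counts, ranges and rank, where rank 1 had the largest of the smaller of its liver L values. Identifiers are given for 4 members, 2 of the highest rank and 2 that fell with time at the low dose. Marker genes could not be read for the same reason, so the labelled tissue was not checked. Isoforms of 1 gene share reads, so the level of a single isoform is less certain than that of its gene.

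The libraries held 13429990 to 34299122 transcript counts each (median 21741218.5). The liver libraries labelled MS-1 and MS-9 stood apart. MS-1 was labelled as vehicle at 24 h and MS-9 as low dose at 8 h, yet 99.96% of their 15797 transcripts with at least 10 counts agreed within 1 count. The summed level of the 180 members was 9237 CPM in each, against 1352 to 2041 CPM in the other 4 vehicle samples at 24 h. In MS-1, 177 of the 180 members were higher than in every one of those 4 samples. MS-1 was left out of all values below unless it is named, and the counts of members that use MS-9 are given with and without it.

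The choice of members proceeded in steps. Of the 15500 transcripts with a liver vehicle level of at least 0.5 CPM at 24 h, 605 (3.9%) had L of at least 1.5 at 8 h and 567 (3.66%) at 24 h. Both limits were met by 240 transcripts, of which 60 had L of at least 1 in kidney at 8 h and were removed. The smaller liver L of the 180 members had a median of 1.79 and a highest value of 4.69. The members just inside the limit had a smaller L of 1.50071, 1.50151 and 1.50643, and the transcripts just outside it had 1.49817, 1.49709 and 1.49185. With MS-1 kept among the vehicle samples the same limits chose 95 transcripts, of which 76 were among the 180.

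The members were low in untreated liver. Their mean vehicle levels at 24 h ran from 0.503 to 277 CPM with a median of 3.14, and at 8 h from 0.307 to 249 CPM with a median of 3.76. At the high dose the levels ran from 3.93 to 1096 CPM at 8 h, with a median of 20.9, and from 7.80 to 2359 CPM at 24 h, with a median of 30.2. Per length, the median level was 1.30 TPM, the kallisto level scaled by transcript length, with vehicle at 24 h and 15.4 TPM at the high dose, and the number of members at 10 TPM or more was 19 and 122, respectively. The member at rank 47 had the highest level per length at both times, with 2214 TPM at the high dose at 24 h and 221 TPM with vehicle.

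The members took a larger share of liver counts at the high dose than with vehicle. With vehicle at 8 h, their summed level was 1673 ± 168 CPM (SD, n = 5), with samples between 1514 and 1923. At the high dose at 8 h it was 9342 ± 1603 CPM (n = 5), between 6975 and 11120, which was 5.58 times the vehicle mean. With vehicle at 24 h it was 1656 ± 290 CPM (n = 4). At the high dose at 24 h it was 14697 ± 4287 CPM (n = 5), between 9394 and 19966, or 8.88 times the vehicle mean. No treated liver sample overlapped with the vehicle samples of its time. Total composition also shifted in these livers. Levels were also scaled by trimmed mean of M values (TMM), with factors computed once over all 90 libraries of the 3 organs, MS-1 included. The ratios were then 4.59 at 8 h and 4.74 at 24 h. The size of the ratio and its difference between the times thus depended on the scaling.

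**Figure D1:**
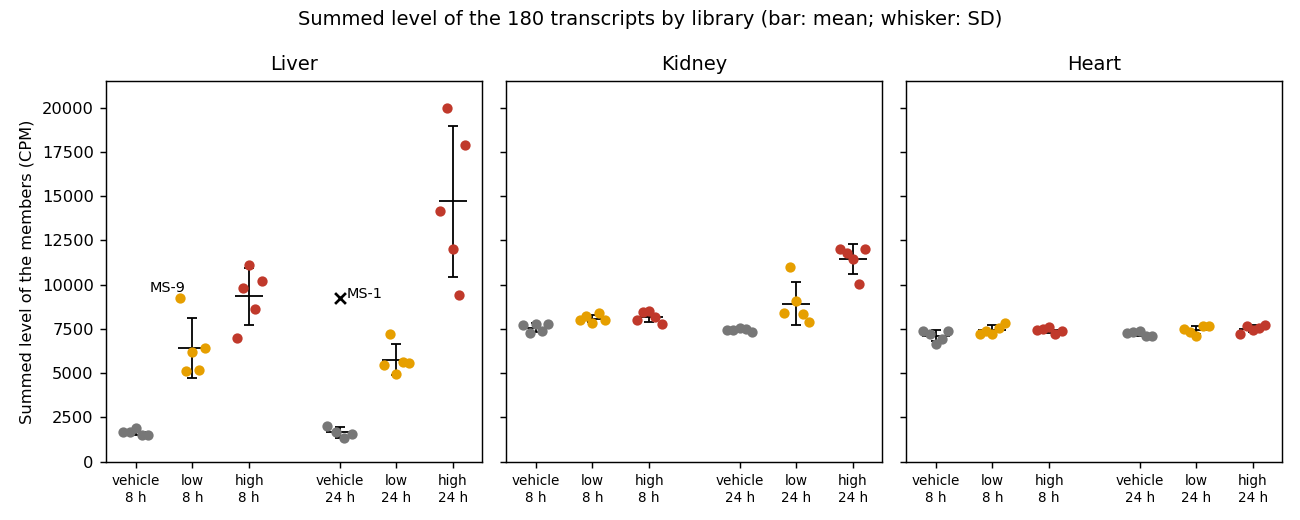
Summed level of the 180 members in each sample (y axis, CPM) for each organ, time and dose (x axis), with points for samples, a bar for the group mean and a whisker for the SD; a cross marks MS-1, left out of its mean. At 24 h the liver samples sit between 1352 and 2041 CPM with vehicle, leaving out MS-1, and between 9394 and 19966 CPM at the high dose, the kidney high-dose samples at 24 h sit between 10036 and 12039 CPM, and the heart samples stay between 6640 and 7840 CPM.

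The liver L at the high dose had a median of 1.99 at 8 h, with a highest value of 5.09, and of 2.07 at 24 h, with a highest value of 6.52. The times were close for most members: L differed by less than 1 between 8 and 24 h for 153 of the 180, was higher by at least 1 at 24 h for 18 and was lower by at least 1 for 9. It was higher at 24 h than at 8 h for 99 members. The difference had a median of 0.05 and ran from −2.81 to 3.03. On TMM-scaled CPM, every high-dose sample was above every vehicle sample for 168 members at 8 h, against 15.4% of all transcripts measured, which follows from the way the members were chosen.

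**Figure D2:**
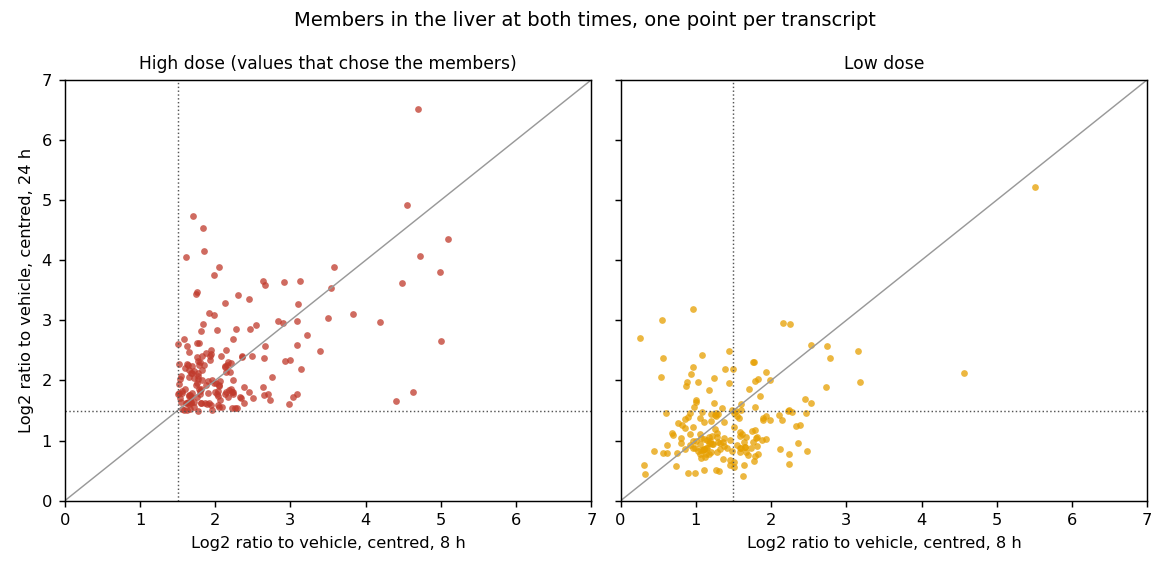
L of each of the 180 members in liver at 8 h (x axis, log2) and 24 h (y axis, log2), at the high dose (left) and the low dose (right), with a line where both are equal and dotted lines at 1.5. At the high dose 153 members lie within 1 between the times, and at the low dose all 180 lie above 0 at both times.

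ENSRNOT00000047126, with a length of 3889 bases, ranked first. With vehicle at 8 h its samples were at 0.703, 0.913, 1.76, 1.81 and 2.50 CPM. At the low dose they were at 43.9, 83.5, 132, 197 and 225 CPM, the last being MS-9, and at the high dose at 50.8, 53.7, 55.4, 78.1 and 97.0 CPM. The low and high dose overlapped at 8 h, and both lay entirely above vehicle. At 24 h the vehicle samples were at 0.469, 1.30, 2.21 and 3.84 CPM, the low dose at 102.4, 138, 160.3, 162 and 172 CPM, and the high dose at 253, 397, 465, 483 and 569 CPM. The 3 groups were separate at 24 h, in order of dose.

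ENSRNOT00000009448 ranked next. At 8 h its vehicle samples were at 0.217, 0.296, 0.327, 0.441 and 0.679 CPM, its low-dose samples at 4.51, 5.20, 7.99, 14.8 and 17.1 CPM, and its high-dose samples at 12.5, 27.1, 30.4, 45.996 and 47.5 CPM. At 24 h the vehicle samples were at 0.168, 0.422, 0.739 and 1.46 CPM, the low-dose samples at 1.91, 4.31, 5.601, 7.38 and 18.3 CPM and the high-dose samples at 46.2, 69.6, 92.3, 94.1 and 102.4 CPM. The doses overlapped at 8 h and were separate at 24 h, where the high dose lay above every low-dose sample.

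**Figure D3:**
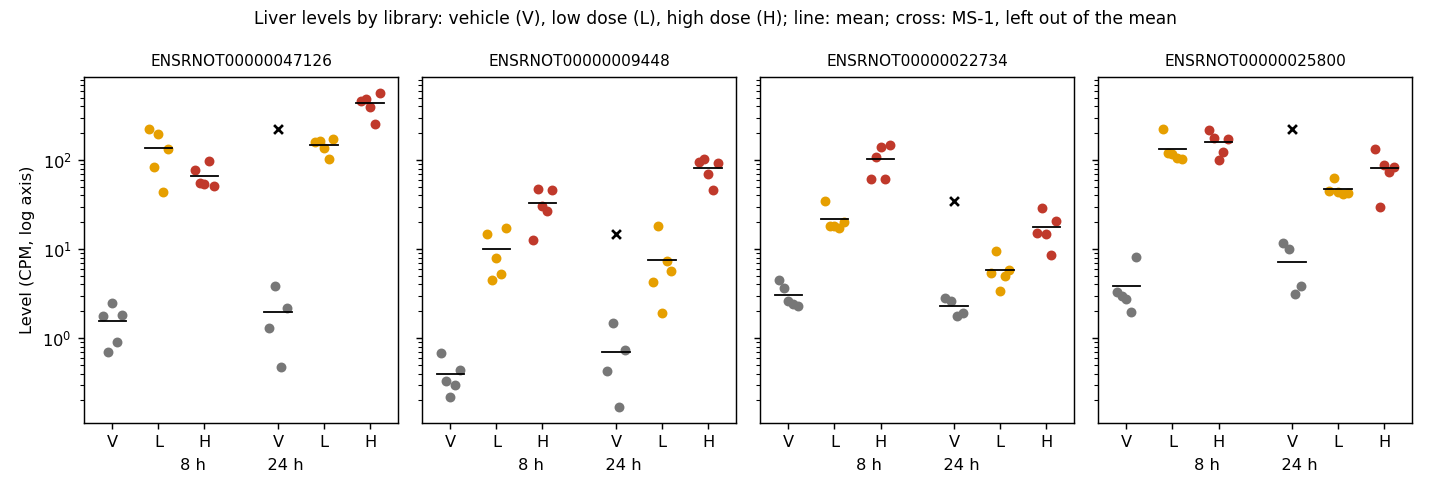
Level in liver (y axis, CPM on a log scale) of the 4 transcripts given by identifier, for each sample by time and dose (x axis), with a line for the group mean and a cross for MS-1, left out of it. ENSRNOT00000047126 reaches 569 CPM at the high dose at 24 h, and ENSRNOT00000022734 is lower at 24 h than at 8 h in every low-dose and high-dose sample.

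The low dose, which the choice of members did not use, raised these transcripts too. L at the low dose was above 0 for all 180 members at both times, against 49.9% of the 15500 transcripts at 8 h and 48.9% at 24 h. Its median was 1.34 at 8 h, and it was at least 1.5 for 74 members, against 1.25% of the 15500 transcripts. At 24 h the median was 1.10, and it was at least 1.5 for 47 members, against 0.826%. Without MS-9 the median at 8 h was 1.24 and the count 56, against 0.987% of transcripts. On TMM-scaled CPM, every low-dose sample was above every vehicle sample for 129 members at 8 h, against 10.9% of transcripts measured, and for 145 at 24 h, against 13.2%. The count at 8 h was also 129 without MS-9, but leaving out a treated sample cannot lower such a count. The vehicle samples in these ratios also entered the choice of members, so the low-dose ratios are not independent of it.

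Calls of differential expression came from edgeR's quasi-likelihood test, with p adjusted by Benjamini-Hochberg over all transcripts tested, and needed an adjusted p no higher than 0.01 and a fold change no smaller than 0.60 in natural log units (0.866 in log2 units). All 180 members were tested at each time, and since the vehicle libraries in these tests also served to choose the members, their counts are a description and not independent of that choice. At 8 h, 131 rose with the low dose, against 5.78% of the 16341 transcripts tested, and 0 fell, against 4.1%. The median log2 fold change of the 180 members was 1.58, and 0.00 over all transcripts. At 24 h, 119 rose, against 4.89% of 16754, and 0 fell, against 4.15%, with a median of 1.39, and 0.02 over all. At an unadjusted p of 0.05, 166 members were higher at 8 h, against 22.8% of all transcripts, or 163 without MS-9, against 20%. At 24 h, 172 were higher, against 21.7%, and 0 were lower at either time.

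The count at 24 h depended on whether MS-1 was kept. With MS-1 among the vehicle samples, 5 members were called at 24 h in place of 119, and 0.96% of all transcripts were called higher in place of 4.89%. Without MS-9, 112 were called at 8 h in place of 131, and 4.25% of all transcripts were called higher in place of 5.78%. Leaving out another single sample at 8 h gave from 116 (without MS-28, 4.72% of all transcripts) to 151 (without MS-16, 6.16%). The fall without MS-9 was thus close to that without MS-28. Of the members, 92 were called at both times, which is 70.2% of those at 8 h, where 66.1% of all 180 were called at 24 h, and 77.3% of those at 24 h, where 72.8% of all 180 were called at 8 h. These shares are near those of the whole set. Another 66 were called at a single time and 22 at neither. Without MS-9, 79 were called at both times, 73 at a single time and 28 at neither.

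ENSRNOT00000047126 rose with the low dose by a log2 fold change of 6.10 (SE 0.52, adjusted p = 4.11e-05) at 8 h and of 5.70 (SE 0.46, adjusted p = 6.16e-05) at 24 h. ENSRNOT00000009448 rose by 4.30 (SE 0.48, adjusted p = 0.000124) at 8 h. Without MS-9 the values at 8 h were 5.84 and 4.11, respectively, and both were called. At 24 h the difference of ENSRNOT00000009448 was 2.88 (SE 0.73, adjusted p = 0.0138), which missed the limit.

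L was higher at the high dose than at the low dose for 171 members at 8 h (56.5% of the 15500 transcripts), or 174 without MS-9 (56.6%), and for 178 at 24 h (50.9%). That order held at both times for 169 members (31.9%). The members were chosen for a high L at the high dose, so this order is largely set by the choice and is a description. Only 2 members at 8 h, and 0 at 24 h, had a low-dose L higher than the high-dose L by 0.5 or more. The summed level at the low dose was 6428 ± 1677 CPM (n = 5) at 8 h, or 5726 ± 679 CPM (n = 4) without MS-9, and 5771 ± 853 CPM (n = 5) at 24 h. At 24 h the low-dose samples, between 4935 and 7212 CPM, lay below all high-dose samples. At 8 h the highest low-dose sample, MS-9, overlapped with the high dose, and the other 4, at most 6427 CPM, did not.

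The comparison of the low dose at 24 h with the low dose at 8 h used no sample from the choice of members, and asks how their levels differed between the times. It was not adjusted for vehicle, where the median level of the members was 3.76 CPM at 8 h and 3.14 CPM at 24 h. The clock time of injection and the access to food also differed, and these cannot be told apart from the time after the dose. In edgeR's test, 20 members fell, against 2.22% of 16792 transcripts, and 7 rose, against 1.92%. The median log2 change of the members was −0.40, and −0.03 over all transcripts, and 127 of 180 were lower at 24 h, against 8892 of the 16792 transcripts. Without MS-9 the median was −0.23 and 117 were lower, against 49.3%. The split between higher and lower depended on the scale: limma on log2(TPM + 1), a scale without TMM, called 10 higher and 4 lower with a median of −0.06, and over all transcripts that fit called 3.48% higher and 0.53% lower. Without MS-9 the counts were 9 higher and 11 lower, against 1.59% and 1.14% of all transcripts. Without MS-2, a low-dose library at 24 h, they were 7 higher and 13 lower, against 1.2% and 1.34%.

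Members were then split by the time course of L at the high dose, which shares no sample with this comparison. Of the 18 members whose high-dose L was later by at least 1, 7 rose and 0 fell, and their median log2 change was 0.66. Of the 9 members whose high-dose L was earlier by at least 1, 0 rose and 4 fell, with a median of −1.03. Among the other 153, 0 rose and 16 fell, with a median of −0.44. Without MS-9, 8 rose and 0 fell among the 18 (median 0.80), 0 rose and 4 fell among the 9 (median −0.85), and 1 rose and 7 fell among the 153 (median −0.27). For comparison, under the same limits on vehicle level and on kidney at 8 h, 74 transcripts with liver L of at least 1.5 at 8 h and below 0.5 at 24 h had 0 higher and 23 lower of 73 tested, or 14 lower without MS-9. The 70 with the reverse pattern had 28 higher and 0 lower of 69 tested, or 26 higher of 70 without MS-9.

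ENSRNOT00000022734, at rank 82, was the member that fell most. At the low dose at 8 h its samples were at 17.2, 18.1, 18.3, 20.2 and 35.1 CPM, the last being MS-9. At 24 h they were at 3.38, 4.95, 5.40, 5.79 and 9.40 CPM, with no overlap. The log2 change was −2.10 (SE 0.27, adjusted p = 0.0008 in edgeR's test), and it was −1.83 (adjusted p = 0.00156) without MS-9. At the high dose it ran from 61.1 to 147 CPM at 8 h and from 8.66 to 28.7 CPM at 24 h, against vehicle samples of 2.32 to 4.44 and 1.76 to 2.85 CPM.

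ENSRNOT00000025800, at rank 20, fell from 101.7, 106.1, 118, 121 and 225 CPM at 8 h, the last being MS-9, to 41.6, 42.4, 44.1, 45.2 and 62.4 CPM at 24 h. The times did not overlap. Its log2 change was −1.69 (SE 0.21, adjusted p = 0.000708), or −1.39 (adjusted p = 0.000631) without MS-9. Its level at 24 h was still higher at the low dose than with vehicle, by 2.21 (SE 0.35, adjusted p = 0.00131). In all 14 fits, which include every alternative and every sample left out, both of these members were called lower, with the highest adjusted p at 0.00359 and 0.0035, respectively.

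The member at rank 118, 993 bases long, rose most between the times. At the low dose it was at 0.658, 0.813, 1.16, 1.70 and 3.33 CPM at 8 h and at 12.03, 14.5, 22.2, 24.9 and 28.7 CPM at 24 h. The log2 change was 3.55 (SE 0.43, adjusted p = 0.000604), and it was called in all 14 fits, with 3.46 without MS-9. The member at rank 73 rose from 15.04 to 32.5 CPM at 8 h to between 78.9 and 218 CPM at 24 h, a log2 change of 2.30 (SE 0.28, adjusted p = 0.000616), or 2.42 without MS-9.

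Without treatment, most members were higher in kidney and heart than in liver. Their median vehicle level was 3.33 CPM in liver, 13.99 CPM in kidney and 11.5 CPM in heart, against 8.02, 16.7 and 11.3 CPM for the 15500 transcripts. Kidney was above liver for 163 members (90.6%, against 80.8% of the 15500), and heart above liver for 150 (83.3%, against 62.9%). Liver was the highest of the 3 organs for 10 members (5.56%, against 15.8%). Liver vehicle values entered the choice of members, so these shares are a description.

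The high dose in kidney at 8 h was limited by the choice of members, and L there had a median of 0.30. The lowest value, −4.34, belonged to rank 9, whose kidney vehicle samples at 8 h ran from 0 to 77.1 CPM. Its high-dose samples ran from 0 to 0.0244 CPM, so that the groups overlapped. The low dose at 8 h had no such limit, though its vehicle samples entered the choice. L there had a median of 0.18 and a highest value of 2.38. On TMM-scaled CPM, every low-dose kidney sample at 8 h was above every vehicle sample for 24 of 175 members, against 2.78% of transcripts measured. For the high dose it was 26 of 176, against 4.59%. At 24 h, which the choice did not use, 54 members had L of at least 1 at the high dose, against 2.56% of the 15500. L was above 0 for 161 members, against 52.3%, and its median was 0.64, against 0.02 over the 15500. The summed kidney level was 7453 ± 86.7 CPM (n = 5) with vehicle, between 7345 and 7559, and 11466 ± 837 CPM (n = 5) at the high dose, between 10036 and 12039. The groups did not overlap, and the ratio of means was 1.54, or 1.37 with TMM scaling.

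In edgeR's test of kidney at 24 h, 48 of the 176 members tested rose with the high dose, against 2.15% of 18967 transcripts, and 1 fell, against 2.04%. The median log2 fold change was 0.70, and 0.02 over all transcripts. Among the members that rose, the fold change ran from 0.87 to 5.52 on the log2 scale with a median of 1.20. Every high-dose sample was above every vehicle sample on TMM-scaled CPM for 56 of 178 members, against 5.47% of transcripts measured. The low dose at 24 h gave 9 of 176, against 1.09%. Of the comparison transcripts, chosen under the same kidney limit at 8 h, the 74 raised in liver at 8 h alone had 8 higher and 2 lower of 64 tested, and the 70 raised at 24 h alone had 2 higher and 1 lower of 65.

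The member at rank 118 had the largest kidney change. Its vehicle samples were at 2.69, 4.24, 4.95, 9.32 and 43.6 CPM, and its high-dose samples at 335, 510.0, 692, 748 and 898 CPM, with no overlap. The log2 fold change was 5.52 (SE 0.78, adjusted p = 0.000922 in edgeR's test), and all 16 fits called it. At the low dose its kidney samples at 24 h ran from 97.4 to 668 CPM, also above every vehicle sample. In heart it stayed between 0.568 and 5.34 CPM in every group.

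The member at rank 15 was at 0 to 0.545 CPM in kidney with vehicle and at 4.03 to 6.19 CPM at the high dose, a log2 fold change of 3.99 (SE 0.56, adjusted p = 0.000841). Rank 4 was at 2.13, 2.65, 3.72, 4.15 and 4.52 CPM with vehicle and at 26.4, 27.4, 29.2, 29.6 and 29.9 CPM at the high dose. Its log2 fold change was 2.93 (SE 0.21, adjusted p = 1.24e-05). The member that fell, rank 158, went from 491 to 758 CPM with vehicle to 187 to 308 CPM at the high dose, a log2 fold change of −1.31 (SE 0.16, adjusted p = 0.000354), while its liver L was 1.72 at 8 h and 1.57 at 24 h.

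The 4 members given by identifier were not called in kidney at 24 h. ENSRNOT00000047126 was at 2.02 to 19.5 CPM with vehicle and 18.3 to 58.7 CPM at the high dose, a log2 difference of 2.01 (SE 0.62, adjusted p = 0.0528) that missed the limit. ENSRNOT00000009448 had a log2 difference of 0.31 (SE 0.38, adjusted p = 0.664), and ENSRNOT00000025800 of 0.21 (SE 0.58, adjusted p = 0.856). ENSRNOT00000022734 had a difference of 1.05 (SE 0.27, adjusted p = 0.0251). The kidney levels of all 4 overlapped between the groups. Of the 20 members that fell between the times at the low dose in liver, 10 rose in kidney at 24 h, which is 50% of the former and 20.8% of the 48, where 27.3% of all members tested rose in kidney. Without MS-9 it was 4 of 11.

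**Figure D4:**
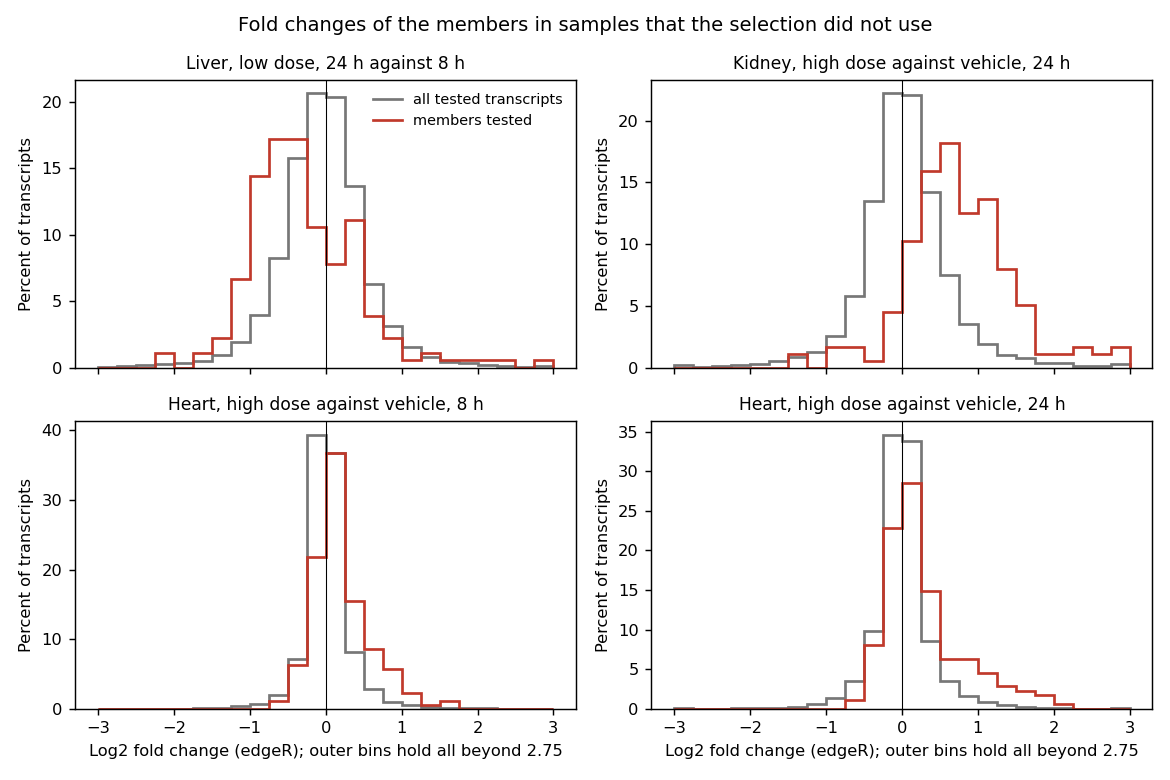
Distribution of log2 fold changes (x axis) of the members and of all transcripts tested (y axis, percent of transcripts per bin) in 4 comparisons fitted by edgeR, with the outer bins holding all values beyond them. The members have a median of −0.40 for the low dose in liver at 24 h against 8 h, of 0.70 in kidney at 24 h, and of 0.13 and 0.15 in heart at 8 and 24 h, with all transcripts centred near 0.

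The summed level of the members in heart lay between 6640 and 7840 CPM in all 30 heart samples, and the ratios of treated to vehicle means were between 1.03 and 1.05. The 10 largest members held 56.3% to 61.5% of that sum, so it says little of the others. At 8 h, edgeR's test called 2 of 174 members higher at the high dose, which were 2 of the 3 transcripts called among 17519 (0.0171%), and 0 lower (0.0%). At an unadjusted p of 0.05, 38 were higher (21.8%, against 5.3% of all transcripts) and 10 lower (5.75%, against 4.39%). DESeq2 called 4 members higher, against 0.13% of all transcripts, and limma on log2(TPM + 1) called 1, against 0.0114%. The median log2 fold change was 0.13 for the members and 0.00 over all transcripts.

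The 2 members were ranks 14 and 142. Rank 14 was at 8.83, 10.9, 11.8, 14.5 and 15.4 CPM with vehicle and at 31.96, 33.9, 35.7, 39.2 and 48.3 CPM at the high dose, a log2 fold change of 1.60 (SE 0.15, adjusted p = 0.00194). Rank 142 was at 11.3 to 13.2 CPM with vehicle and at 20.8 to 26.1 CPM at the high dose, a log2 fold change of 0.93 (SE 0.08, adjusted p = 0.00194). Neither overlapped between the groups, but without MS-76 or without MS-88 1 of the pair was called.

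At 24 h in heart, 14 of 175 members rose with the high dose, against 0.677% of 17574 transcripts, and 0 fell, against 0.245%. At an unadjusted p of 0.05, 66 members were higher (37.7%, against 10.9% of all transcripts) and 11 lower (6.29%, against 9.99%), and the median log2 fold change was 0.15. On TMM-scaled CPM, every high-dose sample was above every vehicle sample for 31 of 174 members, against 4.5% of transcripts measured, and every low-dose sample for 10 of 175, against 1.12%. Rank 67 rose from 5.32, 7.25, 9.11, 9.54 and 10.9 CPM to 24.0, 26.4, 28.5, 31.6 and 36.8 CPM, a log2 fold change of 1.82 (SE 0.18, adjusted p = 0.000471), and was called in all 14 fits. Rank 117 had a log2 fold change of 2.01 and rank 174 of 1.99, and they were called in 5 and 8 of the 14 fits. The count was 6 without MS-66, 7 without MS-79, 8 without each of MS-61, MS-64 and MS-81, and 9 without MS-80 or MS-85. In these fits 0.403% to 0.552% of all transcripts were called higher.

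At 24 h, 3 members were called higher in both kidney and heart, which is 6.25% of the 48, where 8% of all members tested were called in heart, and 21.4% of the 14, where 27.3% were called in kidney. These shares are near those of the whole set. Rank 77 had a log2 fold change of 1.33 in kidney and 1.39 in heart, and rank 7 of 0.88 and 0.89.

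**Figure D5:**
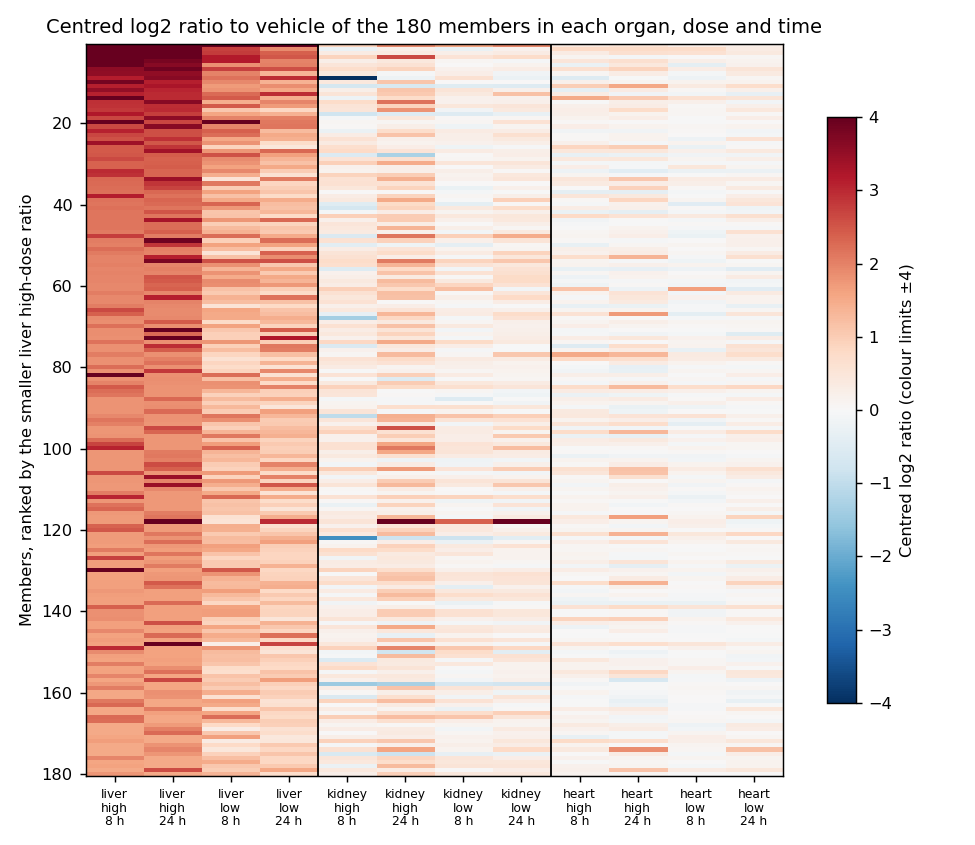
L of the 180 members (rows, ranked by the smaller liver L at the high dose) in each organ, dose and time (columns), as colour from −4 to 4 on the log2 scale. The liver columns are positive for every member, and the kidney high dose at 24 h has 54 members at 1 or above (2.56% of the 15500). The heart columns have medians between 0.03 and 0.14, and the high dose at 24 h has 15 members at 1 or above (0.768% of the 15500).

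The members were 324 to 15025 bases long with a median of 2474.5, against 2178 for the 15500 transcripts. The 48 members that rose in kidney had a median length of 2318.5 bases.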

How the data were processed

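Poly-A-enriched RNA from liver, kidney and heart was sequenced, 30 samples an organ. The authors quantified reads with kallisto 0.42.2 against the rat build Rnor_6.0, both per the submitters' processing notes. The deposited tables hold estimated counts and TPM per transcript and per genomic interval. Interval rows took 4.08% to 28.9% of counts and were left out of totals. The authors' TPM served for levels per length and for 1 alternative. Levels given as TMM-scaled CPM used factors computed once over all 90 libraries of the 3 organs, MS-1 included.

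Estimated counts were rounded and tested in edgeR 4.0.16 (R 4.3.3) by the quasi-likelihood test, after filterByExpr and TMM, within the 2 groups compared, with Benjamini-Hochberg adjustment over all transcripts tested. Scripts were tested on simulated data with 200 changed transcripts a comparison. The test called 26% to 57% of the 2-fold changes, 67% to 82% of the 4-fold changes and 0 to 2 unchanged transcripts. A member that was not called may therefore still have changed. Alternatives were DESeq2 1.42.0, limma 3.58.1 on log2(TPM + 1), no filter, no fold limit, leaving out each sample, and, for the members, MS-1 kept, TMM-scaled CPM and a pseudocount of 0.5 CPM.

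Members, lists and tests were chosen with earlier results of these data known. Of the 2 identifiers that rose, each was of highest rank among the 175 members with at least 2 CPM at the high dose and every high-dose sample above every vehicle sample at both times. The 175 do not rest on TMM-scaled CPM, where 168 members met the sample condition at 8 h. The 2 that fell had the largest low-dose decrease from 8 to 24 h among called members. Members given by rank without identifier were chosen after their values were seen. Gene lists and cell markers planned for this work could not be read without gene names. Replicates were 5 rats a group per the study's methods, and the labels give no animal number.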

Additional observations from a re-analysis of the deposited data

Results flagged for a closer look

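The summed level of the members and the levels of the 4 transcripts given by identifier were examined in each of the 18 groups for 1 sample far from the other 4, which chance gives in about 1 in 20 groups. Of 90 such groups of values, 14 had such a sample, and 5 of these were MS-1 among the vehicle livers at 24 h. In MS-1 the summed level was 9237 CPM (others 1352 to 2041). ENSRNOT00000047126 was at 224.6 CPM in MS-1 (others 0.469 to 3.84), ENSRNOT00000009448 at 14.8 CPM (others 0.168 to 1.46), ENSRNOT00000022734 at 35.1 CPM (others 1.76 to 2.85) and ENSRNOT00000025800 at 225.3 CPM (others 3.15 to 11.7). In MS-9, low dose at 8 h, ENSRNOT00000022734 was at 35.1 CPM (others 17.2 to 20.2) and ENSRNOT00000025800 at 225.3 CPM (others 101.7 to 121).

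Other liver values far from their group were those of ENSRNOT00000025800, at 8.22 CPM in MS-29, vehicle at 8 h (others 1.95 to 3.31), and at 62.4 CPM in MS-5, low dose at 24 h (others 41.6 to 45.2). In kidney, ENSRNOT00000047126 was at 8.55 CPM in MS-46, vehicle at 8 h (others 0.989 to 2.92). In heart at 24 h, ENSRNOT00000022734 was at 15.7 CPM in MS-79, vehicle (others 11.1 to 11.9), and at 19.97 CPM in MS-83, low dose (others 13.3 to 14.9). ENSRNOT00000009448 was at 8.02 CPM in MS-62, low dose (others 2.19 to 2.98), and ENSRNOT00000047126 at 1.46 CPM in MS-86, high dose (others 0.815 to 0.959).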

How the results depend on the processing

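Of 30 alternatives other than leaving out a sample, 24 gave counts of members within 1.5 times and in the same direction, as did 50 of 59 fits that left out 1 sample. For the low dose at 24 h against 8 h, limma on log2(TPM + 1) called 14 members, more of them higher, where 3.48% of all transcripts were higher and 0.53% lower. Without the fold limit 44 were called, where 5.0% of all transcripts were higher and 6.72% lower. With MS-1, 5 members were called for the low dose at 24 h, against 0.96% of all transcripts higher. In heart at 8 h, DESeq2 called 4, against 0.13%, and limma 1, against 0.0114%. With MS-1 kept, 95 members were chosen. The cause of these differences was not tested. Leaving out 1 sample gave 20 to 35 members called between the times at the low dose. Of these, 7 to 9 were higher, against 1.11% to 1.94% of all transcripts, and 11 to 28 lower, against 1.14% to 2.31%. For the low dose at 8 h, 112 to 151 were higher, against 4.25% to 6.16%. At 24 h, 98 to 123 were higher, against 3.31% to 4.92%. In kidney at 24 h, 38 to 58 were higher, against 1.45% to 2.73%, and 1 to 2 lower, against 1.34% to 2.76%. In heart, 1 to 2 were higher at 8 h, against 0.00561% to 0.0338%, and 6 to 13 at 24 h, against 0.403% to 0.698%. With TMM-scaled CPM the limits chose 226 transcripts, 171 of them members, and with a pseudocount of 0.5 CPM 234, 174 of them members. Chosen after seeing the data, a term for library numbers above 90 left 49 kidney calls, and libraries numbered up to 90 alone gave 54. Of all transcripts, 2.21% and 2.43% were called higher in these fits, and 2.18% and 2.24% lower. No paired analysis was possible because the labels give no replicate number shared between groups. Low counts limit the members near 0.5 CPM with vehicle.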
